A study of Mus musculus with 32 samples.

Results

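The genes described here are 10 heat shock and small chaperone genes: the small heat shock proteins Hspb1, Hspb7, Hspb8 and Cryab, the HSP70 genes Hspa1a and Hspa1b, the HSP110 gene Hsph1, the J-domain gene Dnajb1, the HSP90 gene Hsp90aa1 and the cochaperone gene Bag3. They were taken by name, each through its brightest probe set, among 19938 genes with a probe set of their own on the array. A probe set of its own was found for 9 of the 10, and all 9 passed the filter that left 15219 genes for testing. Hspb1 has 2 probe sets and Hsp90aa1 has 3. Hspa1b was represented only by a probe set annotated to both Hspa1a and Hspa1b, so no value is given to Hspa1b alone.

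Chaperones bind unfolded proteins and keep them from clumping. Small heat shock proteins hold client proteins without using ATP, and in striated muscle they guard the filaments of the sarcomere and the desmin network. HSP70 folds those clients in a cycle driven by J-domain proteins and reset by HSP110 and by BAG proteins, and HSP90 completes the folding of kinases and receptors. Several of these genes are induced by the transcription factor HSF1, which binds repeats of the letters GAA in alternating orientation, the heat shock element.

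RNA was taken separately from the left and the right atrium of each of 16 mice on a combined C57BL/6 and FVB/N background, and each of the 32 samples went on an Affymetrix Mouse Gene 1.0 ST array. The groups were 4 animals each of Mst1 transgenic mice (mammalian sterile 20-like kinase 1), dnPI3K mice (a dominant negative phosphoinositide 3-kinase), dnPI3K-Mst1 mice carrying both, and non-transgenic Ntg mice, which carry neither. Mst1 is a kinase of the Hippo pathway that can drive death of cardiac myocytes, and PI3K carries growth and survival signals in the heart. The labels used here give no age, sex, promoter of either transgene or cell type in which it is active, which limits what each genotype can stand for as a model.

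Stk4, the gene of Mst1, averaged 8.25 ± 0.09 log2 in Mst1, 7.61 ± 0.13 in dnPI3K, 8.33 ± 0.11 in dnPI3K-Mst1 and 7.54 ± 0.11 in Ntg (SD, n = 4 animals each), and every animal labelled with Mst1 lay above every other. Array medians ran between 5.51 and 5.68 log2. In 4 arrays the mean correlation with the others was under 0.97: those of Mst1 1466, dnPI3K 3241 and dnPI3K 1507 labelled left and of Ntg 1662 labelled right. All 4 are Bmp10-high arrays by the division that follows. The gene Bmp10, known in adult mice as a right atrial gene, divided each animal's arrays into a high one (11.42 to 12.77 log2) and a low one (at most 6.64), but 13 of the 16 high arrays are labelled left and 3 right (Ntg 1301, Ntg 1662 and Mst1 1839). The labels therefore go against Bmp10 in most animals, and atria are called Bmp10-high and Bmp10-low here, using a cut at 9 log2. Summed atrial myocyte markers (Nppa, Myl4, Myl7 and Sln) lay between 14.34 and 14.63 log2 on every array, which describes atrial myocytes only. The ventricular marker Myl2 ran from 4.40 to 10.70 log2 over dnPI3K arrays and from 4.54 to 8.15 over Ntg arrays. Its highest values were 5.49 in Mst1 and 6.35 in dnPI3K-Mst1. The ventricular markers Myh7 (7.37 to 7.96) and Irx4 (4.12 to 4.91) ranged less in dnPI3K. Carry-over of ventricular tissue was not tested.

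RefSeq promoter windows (GRCm38.p6) were at hand for 8 of the 10 genes, all but Cryab and Hsp90aa1. They were searched for GAANNTTC and TTCNNGAA, a pair of opposed heat shock units, and for such a pair with 1 more opposed unit after 2 further bases of any kind, which holds 3 units and contains the pair. Each pair reads the same on both strands, and the forms of 3 units are reverse complements, so both strands were covered. A pair was found in 6 of the 8 genes (Hspb1, Hspb8, Hspa1a, Hspa1b, Hsph1 and Bag3) and in neither Hspb7 nor Dnajb1, against 17% of 27025 genes (15.1% of all 32851 windows of 300 bases). The form with 3 units was found in Hsph1, against 0.662% of genes (0.603% of windows). A match describes the letters only. The 250 bases before the start site are shown for the gene with the largest Mst1 difference (Hspb1), the most variable member (Hspa1a) and a member with no pair (Hspb7), with matches in capitals. Hspb1 lies at chr5:135887669-135887918 on the plus strand, Hspa1a at chr17:34972157-34972406 on the minus strand and Hspb7 at chr4:141420529-141420778 on the plus strand.
Hspb1: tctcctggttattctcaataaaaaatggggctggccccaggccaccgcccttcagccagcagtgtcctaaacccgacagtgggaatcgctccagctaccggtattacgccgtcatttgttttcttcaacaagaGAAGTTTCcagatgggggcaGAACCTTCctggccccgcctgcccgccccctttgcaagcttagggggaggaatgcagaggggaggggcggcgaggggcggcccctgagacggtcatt
Hspa1a: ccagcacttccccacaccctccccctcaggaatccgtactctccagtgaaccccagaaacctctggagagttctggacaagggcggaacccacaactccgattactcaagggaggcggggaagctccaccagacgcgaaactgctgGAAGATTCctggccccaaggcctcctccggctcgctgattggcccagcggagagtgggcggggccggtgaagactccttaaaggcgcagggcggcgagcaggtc
Hspb7: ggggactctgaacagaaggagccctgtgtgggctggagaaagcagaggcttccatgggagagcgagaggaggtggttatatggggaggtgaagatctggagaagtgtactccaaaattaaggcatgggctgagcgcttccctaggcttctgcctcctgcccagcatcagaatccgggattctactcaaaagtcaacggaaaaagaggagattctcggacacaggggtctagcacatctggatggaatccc

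Counted from the start site, the pairs in Hspb1 span positions -117 to -110 and -97 to -90, and the pair in Hspa1a spans -104 to -97. In Hspb8 and Bag3 a pair lies after the start site, at 3 to 10 and 43 to 50. Hsph1 has windows for 2 start sites; from the first, the form with 3 units lies at 37 to 49 and a separate pair at -33 to -26, and from the second at 16 to 28 and -54 to -47. The stretches are shown with up to 8 bases on each side, and the capitals mark the form with 3 units in Hsph1 (first window) and the pair in Hspb8 and Bag3.
Hsph1: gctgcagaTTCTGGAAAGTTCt
Hspb8: agccaggaGAAGTTTCtaggctcg
Bag3: tgggaccaGAAGTTTC
The whole windows of Hspa1a and Hspa1b (300 bases) differ at 4 positions, an identity of 98.7%, and the transcripts of these neighbouring genes are near copies, so the Hspa1a probe set may also report Hspa1b.

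Mst1 alone was set against Ntg first. Of the 9 genes, 3 rose in Mst1 atria against Ntg atria and none fell: Hspb1, Hsp90aa1 and Hsph1. Across the array 12.6% of genes were called higher and 14.2% lower, at an adjusted p under 0.05 in limma over the means of each animal's atria. The differences ran from 0.004 log2 (Cryab, SE 0.07) to 1.58 (Hspb1), with a median of 0.32 log2 against 0.00 over all genes tested. Fewer cells of a type and less RNA per cell cannot be told apart in these whole-tissue samples.

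Hspb1 (HSP25 in mice) is a small heat shock protein that protects actin and is phosphorylated under stress. Hspb1 had 9.93, 10.79, 10.78 and 10.86 log2 in the 4 Mst1 animals, against 8.72, 9.58, 8.88 and 8.85 in the Ntg animals. The groups did not overlap, as was so with Mst1 higher for 11.2% of all genes, although Mst1 1466 lay well below the other Mst1 animals and Ntg 1657 well above the other Ntg animals. Hspb1 was 3.00-fold higher in Mst1 (1.58 ± 0.24 log2, SE, limma adjusted p = 4.7e-05). Its second probe set gave 1.59 ± 0.24 (limma adjusted p = 4e-05).

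The muscle-enriched small heat shock proteins were not called. Hspb7, a protein of the sarcomere that binds filamin C, had 10.34, 10.68, 10.80 and 10.83 log2 in Mst1 animals, against 10.30, 10.41, 10.30 and 10.35 in Ntg animals. Its difference of 0.32 ± 0.13 did not pass (limma adjusted p = 0.083), and without Mst1 1466 it was 0.43 and passed (limma adjusted p = 0.013). Hspb8, which works with BAG3 to send damaged proteins to autophagy, differed by 0.26 ± 0.12 (limma adjusted p = 0.12), or 0.36 without Mst1 1466 (limma adjusted p = 0.013). Cryab (alpha B-crystallin), which guards desmin, averaged 10.43 ± 0.11 log2 in Mst1 and 10.43 ± 0.06 in Ntg (SD, n = 4 each), a difference of 0.00 ± 0.07 (limma adjusted p = 0.98). Among the small heat shock proteins, then, a call was made for Hspb1 alone.

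Hsp90aa1, the stress-inducible cytosolic HSP90, had 11.39, 11.88, 11.91 and 12.04 log2 in Mst1 animals, against 10.59, 11.13, 10.63 and 10.86 in Ntg animals. It was 2.01-fold higher in Mst1 (1.01 ± 0.15 log2, SE, limma adjusted p = 4.8e-05), and its other probe sets gave 0.94 and 1.01 log2. The groups did not overlap. Hsph1, the HSP110 that frees nucleotide from HSP70, had 8.99, 9.56, 9.24 and 9.62 log2 in Mst1 animals, against 8.24, 8.62, 8.43 and 8.39 in Ntg animals. Hsph1 was 1.91-fold higher in Mst1 (0.93 ± 0.27 log2, SE, limma adjusted p = 0.012), again without overlap. On the arrays labelled left alone the Hsph1 difference was 0.84 and did not pass (limma adjusted p = 0.053).

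The inducible HSP70 varied more between animals. Hspa1a had 7.72, 7.83, 7.48 and 7.96 log2 in Mst1 animals, against 6.68, 7.72, 6.38 and 6.53 in Ntg animals. Ntg 1657 alone overlapped with the Mst1 animals, and the difference of 0.92 ± 0.45 did not pass (limma adjusted p = 0.14). Without Ntg 1657 it was 1.22 and did not pass (limma adjusted p = 0.063). With dnPI3K 1507 and dnPI3K 1660 also left out of the shared fit (the 3 animals in which a single atrium was high in Atf3, described with the atria), the same difference passed (limma adjusted p = 0.028). Every array that carries Mst1 was high in Atf3, so only Ntg and dnPI3K animals could be left out. Among them was the Ntg animal highest in Hspa1a, so this pass gives no further weight to the difference. The probe set annotated to both Hspa1a and Hspa1b differed by 1.07 ± 0.41 (limma adjusted p = 0.062). Dnajb1 (HSP40), the J-domain partner that feeds clients to HSP70, averaged 7.88 ± 0.23 log2 in Mst1 and 7.57 ± 0.55 in Ntg (SD, n = 4 each; limma adjusted p = 0.55). Bag3, which links HSP70 and HSPB8 to autophagy and binds filamin, averaged 9.31 ± 0.36 log2 in Mst1 and 9.22 ± 0.09 in Ntg (limma adjusted p = 0.75).

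**Figure D1:**
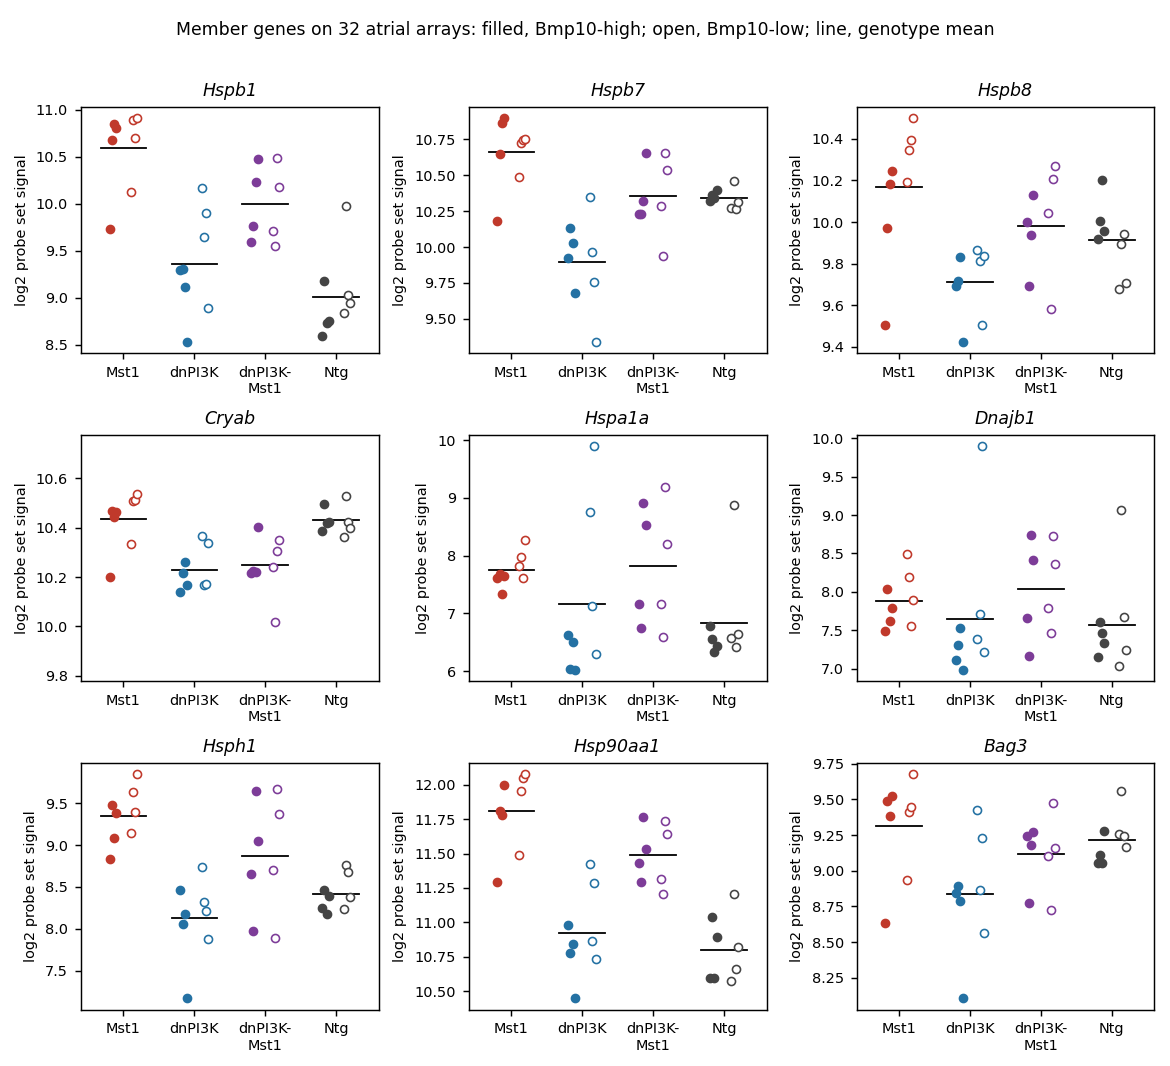
Log2 probe set signal of the 9 genes (1 panel each) in Mst1, dnPI3K, dnPI3K-Mst1 and Ntg; each point is 1 array, filled for Bmp10-high and open for Bmp10-low, and the line is the mean of 4 animals. Hspb1, Hsp90aa1 and Hsph1 sit higher in Mst1 than in Ntg. Hspa1a has Bmp10-low arrays far above the rest in dnPI3K (1660 at 9.90 log2 and 1507 at 8.76) and in Ntg (1657 at 8.88). Dnajb1 has 1 such array in dnPI3K (1660 at 9.90) and 1 in Ntg (1657 at 9.06).

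The second comparison concerned dnPI3K alone. None of the 9 genes was called in dnPI3K against Ntg by limma, where 4.05% of all genes were (197 higher and 419 lower, or 146 higher and 540 lower with each array centred on its median). At an unadjusted p under 0.05, Hspb7, Cryab and Bag3 were lower. Hspb7 had 10.14, 10.05, 9.89 and 9.51 log2 in dnPI3K animals, all below the Ntg range of 10.30 to 10.41, a difference of -0.44 ± 0.13 (limma adjusted p = 0.066). That difference passed when 1 animal of another genotype was left out of the shared fit, Mst1 1466 (limma adjusted p = 0.027) or dnPI3K-Mst1 1647 (limma adjusted p = 0.047). Bag3 had 9.14, 8.88, 9.01 and 8.33 log2 in dnPI3K animals, against 9.16, 9.33, 9.15 and 9.22 in Ntg animals, a difference of -0.38 ± 0.17 (limma adjusted p = 0.27). Hspb8 averaged 9.71 ± 0.07 log2 in dnPI3K and 9.91 ± 0.12 in Ntg, and Cryab 10.23 ± 0.03 in dnPI3K and 10.43 ± 0.06 in Ntg (SD, n = 4 each), with differences of -0.20 in both (limma adjusted p = 0.42 and 0.14). In these 4 genes, every dnPI3K animal lay below every Ntg animal, as was so for 7.7% of all genes. Among the other 5 genes, the difference was 0.35 for Hspb1, 0.33 for Hspa1a, 0.12 for Hsp90aa1, 0.07 for Dnajb1 and -0.29 for Hsph1, and none passed. The sign for Hspa1a was not stable: it was -0.16 without the 3 animals high in Atf3 in a single atrium, and by atrium -0.23 ± 0.31 on Bmp10-high arrays and 0.89 ± 0.67 on Bmp10-low arrays.

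In dnPI3K-Mst1 against Ntg, 2 of the 9 rose, Hspb1 and Hsp90aa1, and none fell, against 16.4% of all genes called higher and 14.2% called lower (2503 higher and 2155 lower, or 1898 higher and 2543 lower with each array centred on its median). Cryab, at -0.18 ± 0.07 (limma adjusted p = 0.067), fell by 0.23 with that centring (limma adjusted p = 0.032). Hspb1 had 9.66, 9.66, 10.36 and 10.33 log2 in dnPI3K-Mst1 animals, against the Ntg values above, a 1.99-fold rise (1.00 ± 0.24 log2, SE, limma adjusted p = 0.0035). Hsp90aa1 had 11.38, 11.25, 11.75 and 11.59 log2 in dnPI3K-Mst1 animals, a 1.61-fold rise over Ntg (0.69 ± 0.15, limma adjusted p = 0.0017). Neither overlapped with Ntg, as was so with dnPI3K-Mst1 higher for 18.4% of all genes. Hsph1 had 8.68, 7.93, 9.66 and 9.21 log2 in dnPI3K-Mst1 animals, so that 1509, 1649 and 1650 lay above every Ntg animal and 1647 below all of them (0.45 ± 0.27, limma adjusted p = 0.22). Without 1647 the Hsph1 difference was 0.77 and passed (limma adjusted p = 0.015). Hspa1a had 7.17, 6.67, 9.05 and 8.37 log2 in dnPI3K-Mst1 animals, so that 2 animals, 1649 and 1650, lay above every Ntg animal and the other 2 did not (0.99 ± 0.45, limma adjusted p = 0.1). Dnajb1 had 7.72, 7.32, 8.74 and 8.39 log2 in the same animals, again with 1649 and 1650 on top (0.47 ± 0.32, limma adjusted p = 0.3). Hspa1a passed without 1647 (1.37, limma adjusted p = 0.026) and without Ntg 1657 (1.28, limma adjusted p = 0.044). Without the same 3 animals high in Atf3 in a single atrium, Hspa1a (1.28, limma adjusted p = 0.019) and Dnajb1 (0.73, limma adjusted p = 0.042) passed. By that rule only Ntg and dnPI3K animals could be left out, and Ntg 1657 was the highest Ntg animal in both genes. Those passes therefore give no further weight to the differences. The median of the 9 was 0.45 log2, against 0.02 over all genes.

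**Figure D2:**
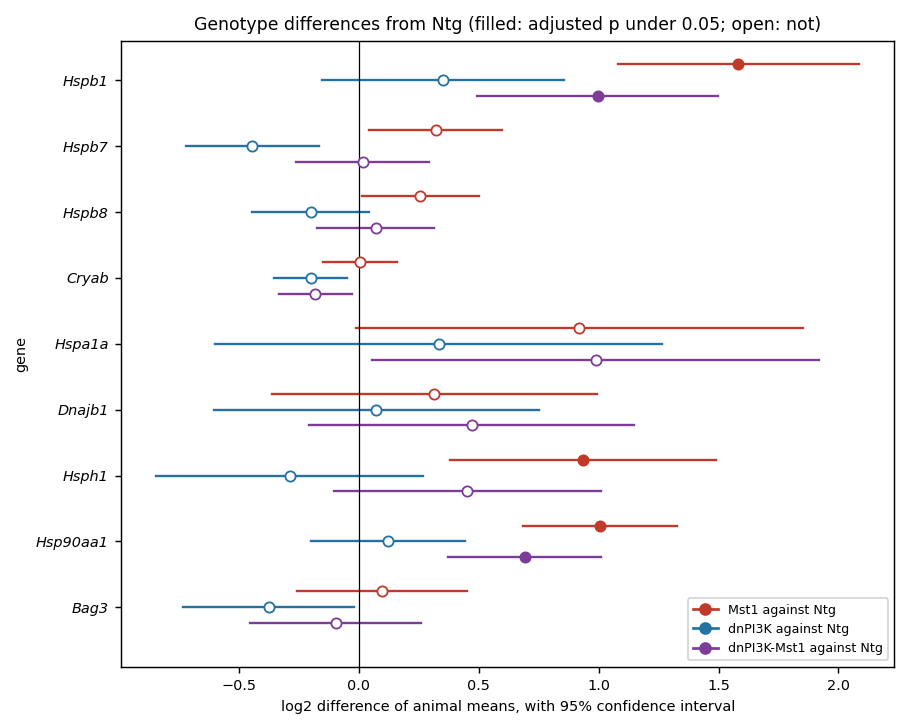
Log2 difference of each of 9 genes in Mst1, dnPI3K and dnPI3K-Mst1 against Ntg, with points for the limma estimate and bars for its 95% confidence interval (n = 4 animals a group); filled points have an adjusted p under 0.05. Filled points appear for Hspb1 (1.58 in Mst1 and 1.00 in dnPI3K-Mst1), Hsp90aa1 (1.01 and 0.69 in the same genotypes) and Hsph1 in Mst1 (0.93), and none for dnPI3K. The 3 comparisons share the Ntg animals.

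The double genotype was also set against each single one. Against Mst1, none of the 9 was called in dnPI3K-Mst1 by limma, where 3.5% of all genes were (403 higher and 129 lower, or 364 higher and 203 lower after quantile normalization). At an unadjusted p under 0.05, Hspb1, Hspb7 and Cryab were lower. Hspb1 differed by -0.59 ± 0.24 (limma adjusted p = 0.2), or -0.81 without Mst1 1466 (limma adjusted p = 0.047). Against dnPI3K, 2 genes rose in dnPI3K-Mst1 and none fell, against 12.8% called higher and 8.8% called lower among all genes. Also higher at an unadjusted p under 0.05, without passing, were Hsph1 (0.74 ± 0.27, limma adjusted p = 0.052), Hspb1 (0.64 ± 0.24, limma adjusted p = 0.064) and Hspb8 (0.27 ± 0.12, limma adjusted p = 0.11). Hsp90aa1 had 11.20, 10.82, 11.07 and 10.59 log2 in dnPI3K animals, all below the dnPI3K-Mst1 animals, as was so for 15.7% of all genes (0.57 ± 0.15, limma adjusted p = 0.011). Hspb7 had 10.26, 10.08, 10.49 and 10.60 log2 in dnPI3K-Mst1 animals and was 1.37-fold higher than in dnPI3K (0.46 ± 0.13, limma adjusted p = 0.017), with 1 dnPI3K animal inside its range. Without dnPI3K 3241 neither passed: Hspb7 differed by 0.33 (limma adjusted p = 0.076) and Hsp90aa1 by 0.46 (limma adjusted p = 0.05, just over the threshold before rounding). The difference for Hspb7 was 0.42 without dnPI3K-Mst1 1649 (limma adjusted p = 0.054) and 0.38 without 1650 (limma adjusted p = 0.068). Non-additivity (how far the double genotype departs from the sum of the single differences, on the log2 scale) was called by limma in none of the 9 and in 0.513% of all genes. Hspb1 alone had an unadjusted p under 0.05 (-0.94 ± 0.34 log2, limma adjusted p = 0.27).

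Ordered by level, Hspb1 was highest in Mst1 (10.59 ± 0.44 log2), followed by dnPI3K-Mst1 (9.66 to 10.36 over the 4 animals, SD 0.40), dnPI3K (9.36 ± 0.44) and Ntg (9.01 ± 0.39; SD, n = 4 each). Neighbours in that order did not differ past the threshold. Hsp90aa1 had the same order, with 11.81 ± 0.28 log2 in Mst1, 11.49 ± 0.22 in dnPI3K-Mst1, 10.92 ± 0.27 in dnPI3K and 10.80 ± 0.25 in Ntg, and the step between dnPI3K-Mst1 and dnPI3K passed. Hsph1, Hspb7, Hspb8 and Bag3 were lowest in dnPI3K and highest in Mst1. No step between neighbours in the order of these genes passed.

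By atrium, 4 of the 9 genes fell in the Bmp10-high atrium against the Bmp10-low atrium of the same animals and none rose, over the 4 genotypes; 5.42% of all genes were called lower and 3.08% higher. They were Hspa1a (-0.66 ± 0.17 log2, limma adjusted p = 0.014, lower in 12 of 16 animals), Hspb1 (-0.27 ± 0.06, limma adjusted p = 0.0028, 13 of 16), Hsph1 (-0.23 ± 0.05, limma adjusted p = 0.0057, 13 of 16) and Hsp90aa1 (-0.12 ± 0.04, limma adjusted p = 0.032, 11 of 16). Dnajb1 (-0.39 ± 0.13, limma adjusted p = 0.07) and Bag3 (-0.16 ± 0.05, limma adjusted p = 0.054) lay in the same direction without passing. Hspb7 differed by 0.02 ± 0.05, Hspb8 by -0.08 ± 0.05 and Cryab by -0.03 ± 0.04, and none of these passed. The call for Hsp90aa1 was lost in 8 of 16 fits that each left out 1 animal, with differences between -0.14 and -0.11. Of the other Hsp90aa1 probe sets, 1 passed (-0.13, limma adjusted p = 0.018) and 1 did not (-0.11, limma adjusted p = 0.093). Without the 4 animals whose Bmp10-high array stands apart, Hsph1 (-0.16, limma adjusted p = 0.065) and Hsp90aa1 (-0.11, limma adjusted p = 0.19) did not pass. Markers of other cells also differed between the atria: 3 of 4 macrophage markers were higher in the Bmp10-high atrium, among them Csf1r (0.63, limma adjusted p = 1.1e-06) and Adgre1 (0.34, limma adjusted p = 0.0077), while Cd68 was at -0.25 (limma adjusted p = 0.15). Of 4 markers each of endothelium, fibroblasts and smooth muscle, 1 was higher, and of the 4 atrial myocyte markers Myl7 was lower (-0.12, limma adjusted p = 0.044). The part of these cells in the atrial difference was not tested.

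The atrial difference was uneven between animals. Hspa1a had 6.63, 6.03, 6.50 and 6.01 log2 on the Bmp10-high arrays of dnPI3K, against 8.76, 7.13, 9.90 and 6.30 on the Bmp10-low arrays of the same animals, and 1507 and 1660 stand out. In Ntg it had 6.78, 6.56, 6.33 and 6.43 log2 on Bmp10-high arrays, against 6.58, 8.88, 6.42 and 6.64 on Bmp10-low arrays, with 1657 alone high. In Mst1 it had 7.61, 7.68, 7.34 and 7.65 log2 on Bmp10-high arrays, against 7.83, 7.98, 7.62 and 8.27 on Bmp10-low arrays, lower on the Bmp10-high array in all 4 animals. In dnPI3K-Mst1 it had 7.17, 6.74, 8.91 and 8.53 log2 on Bmp10-high arrays, against 7.16, 6.60, 9.19 and 8.21 on Bmp10-low arrays, and both atria of 1649 and 1650 were high.

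Atf3, a stress-induced transcription factor that also belongs to the early response genes that handling of tissue can raise, moved with these arrays. Atf3 was at 10.17 log2 on the Bmp10-low array of Ntg 1657, 8.85 on that of dnPI3K 1507 and 10.76 on that of dnPI3K 1660, against 6.20, 5.68 and 6.66 on the Bmp10-high arrays of those animals. The early gene Fosb stood at 7.58, 6.96 and 9.17 log2 on the same Bmp10-low arrays, against 5.68, 5.18 and 5.29 on the Bmp10-high ones. Of 8 early response genes, 3 were lower in the Bmp10-high atrium, among them Egr1 (-0.61 ± 0.11, limma adjusted p = 0.00068) and Ier2 (-0.25 ± 0.06, limma adjusted p = 0.0049). Without the 3 animals with Atf3 above 8 log2 on 1 array only, Hsph1 (-0.26, limma adjusted p = 0.0089) and Hspa1a (-0.26, limma adjusted p = 0.032) still passed, while Hspb1 (-0.18, limma adjusted p = 0.066) and Hsp90aa1 (-0.08, limma adjusted p = 0.27) did not. That choice keeps dnPI3K 1648, with Atf3 at 7.98 log2 on its Bmp10-low array and 6.22 on its Bmp10-high array, whose Hspa1a difference was -1.10. With 1648 left out too (Atf3 above 7.5 log2 on 1 array only), dnPI3K kept 1 animal. The differences were then -0.31 for Hsph1, -0.16 for Hspa1a, -0.18 for Hspb1 and -0.11 for Hsp90aa1. Both choices take out animals whose atria differed in Atf3. The 3 animals left out first also had the largest Hspa1a differences (-3.40 in dnPI3K 1660, -2.32 in Ntg 1657 and -2.13 in dnPI3K 1507). These fits therefore cannot show the part of the early genes in the atrial difference, which was not tested.

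**Figure D3:**
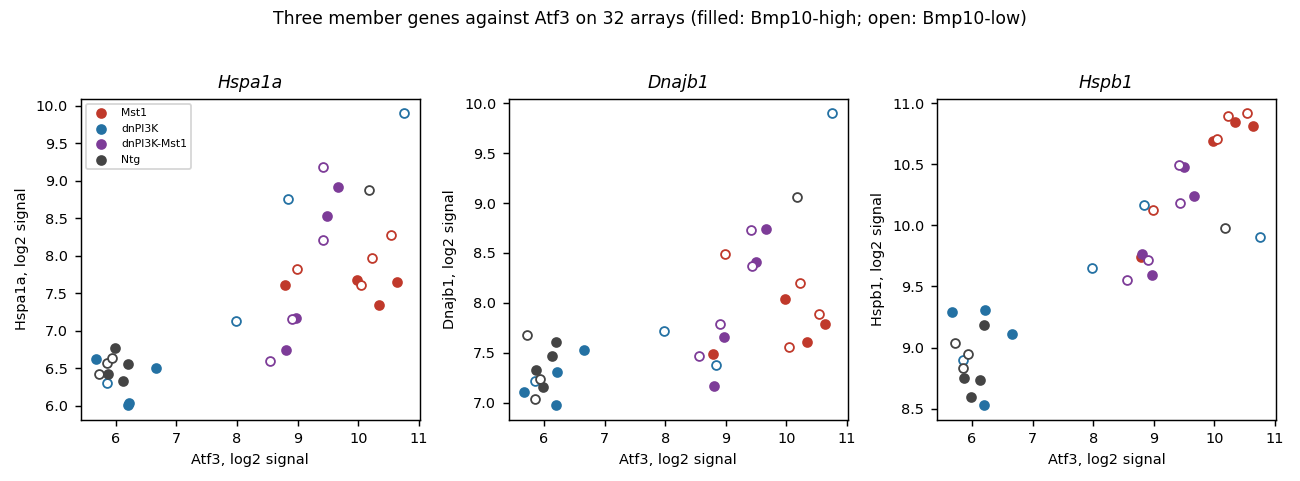
Log2 signal of Hspa1a, Dnajb1 and Hspb1 against that of Atf3, 1 point per array (32), coloured by genotype, filled for Bmp10-high and open for Bmp10-low. Ntg and dnPI3K arrays cluster at low Atf3 except single Bmp10-low arrays (Ntg 1657 at 10.17, dnPI3K 1507 at 8.85, dnPI3K 1648 at 7.98 and dnPI3K 1660 at 10.76), while all arrays that carry Mst1 lie above 8 log2.

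Within single genotypes, 4 genes fell in the Bmp10-high atrium of dnPI3K: Hspa1a (-1.73 ± 0.34, limma adjusted p = 0.0026), Hspb1 (-0.59 ± 0.12, limma adjusted p = 0.0023), Hsp90aa1 (-0.32 ± 0.07, limma adjusted p = 0.0092) and Bag3 (-0.36 ± 0.10, limma adjusted p = 0.044), against 3.25% of all genes called lower. The call for Bag3 was lost in 8 of 16 fits that each left out 1 animal, with differences between -0.49 and -0.29. With 1507 and 1660 left out (and Ntg 1657), dnPI3K had 2 animals, 1648 (-1.10 for Hspa1a) and 3241 (-0.29); Hspa1a was at -0.69 (limma adjusted p = 0.047) and the other 3 did not pass. With 1648 left out too, 3241 alone remained and none of the 4 passed. No gene of the 9 was called between atria by limma in dnPI3K-Mst1 (1.58% of all genes) or in Ntg (3.65%); at an unadjusted p under 0.05, Hspb1 was lower and Hspb8 higher in the Bmp10-high atrium of Ntg, and none differed in dnPI3K-Mst1. The difference between atria was not shown to differ between dnPI3K and Ntg for any of the 9 genes by limma (0.125% of all genes called), with Hspa1a, Hsp90aa1 and Hspb8 at an unadjusted p under 0.05. It was likewise called for none between dnPI3K-Mst1 and Ntg (0.999% of all genes), with Hspb1 and Hspb8 at an unadjusted p under 0.05.

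Hspb8 behaved otherwise. Its Bmp10-high arrays had 9.51, 9.97, 10.18 and 10.25 log2 in Mst1, against 10.19, 10.35, 10.40 and 10.50 on the Bmp10-low arrays. In Ntg its Bmp10-high arrays had 9.92, 10.01, 10.20 and 9.96 log2, against 9.68, 9.89, 9.94 and 9.71 on the Bmp10-low arrays. Every Mst1 animal was thus lower in the Bmp10-high atrium and every Ntg animal higher. In dnPI3K (-0.09 ± 0.10) and dnPI3K-Mst1 (-0.08 ± 0.10) Hspb8 was lower in 3 of 4 animals each, and neither difference was called. Their departures from Ntg were -0.30 ± 0.14 in both, not called. The difference between atria was called in Mst1 (-0.38 ± 0.10, limma adjusted p = 0.04; 1.45% of all genes called lower), and the difference of Mst1 from Ntg in it was -0.60 ± 0.14 (limma adjusted p = 0.032), where 1.17% of all genes were called. That call was lost without Mst1 1466 (-0.50, limma adjusted p = 0.13), and likewise without Mst1 1838 or any 1 of the Ntg animals (-0.63 to -0.58, limma adjusted p between 0.056 and 0.098).

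**Figure D4:**
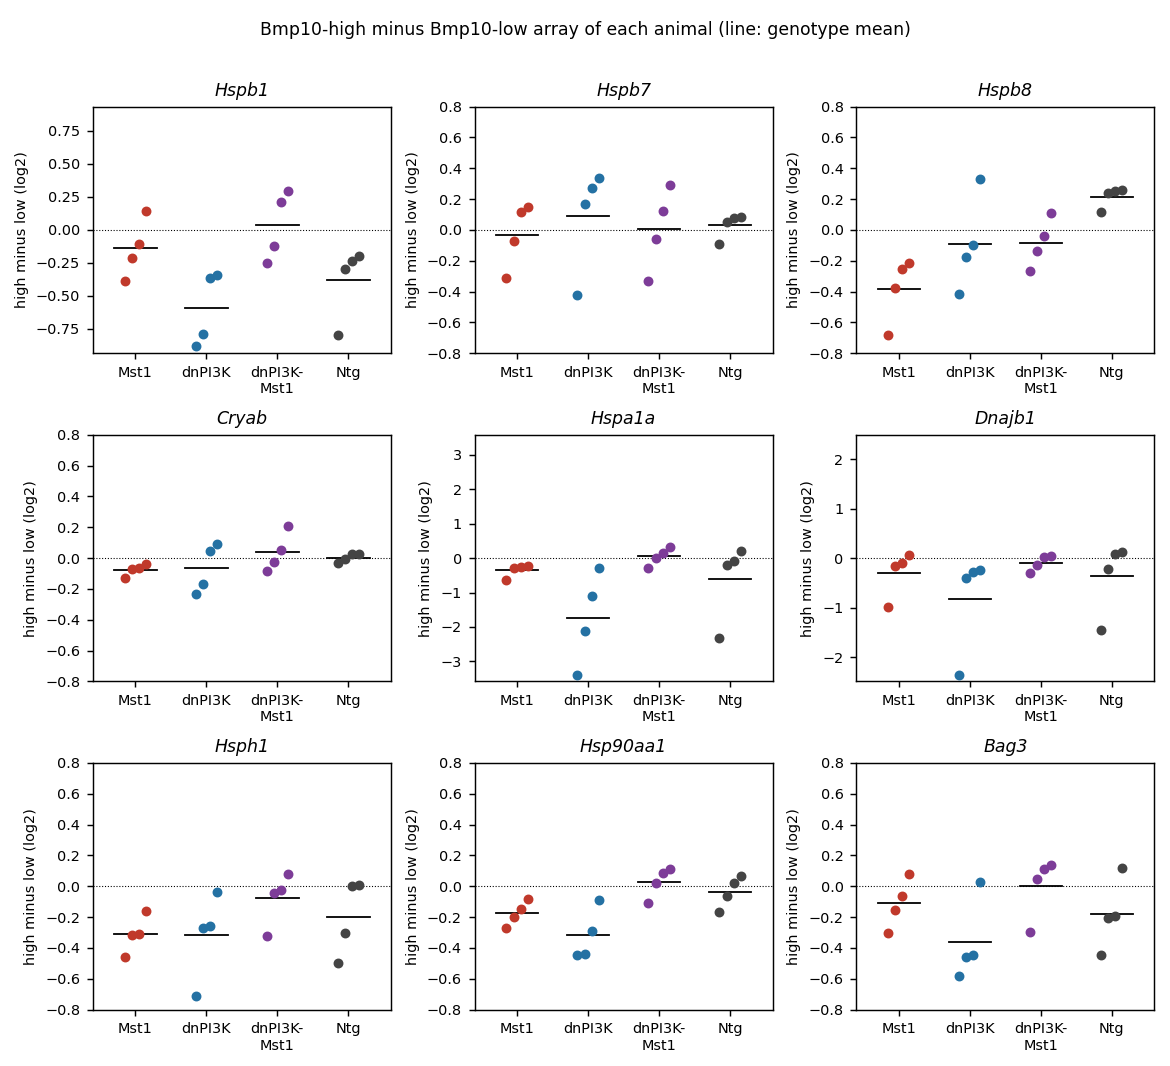
Signal on the Bmp10-high array minus that on the Bmp10-low array of each animal (log2), for 9 genes in Mst1, dnPI3K, dnPI3K-Mst1 and Ntg; points are animals and lines genotype means (n = 4). Hspa1a is at -3.40 in dnPI3K 1660, and Hspb8 is below 0 in all Mst1 animals and above 0 in all Ntg animals.

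Hspb1, Hsp90aa1 and Hsph1 rose in Mst1 in both kinds of atrium. On Bmp10-high arrays Hspb1 (1.70 ± 0.23), Hspa1a (1.05 ± 0.31, limma adjusted p = 0.026), Hsp90aa1 (0.94 ± 0.15) and Hsph1 (0.88 ± 0.27, limma adjusted p = 0.03) were called higher in Mst1 than in Ntg, against 5.3% of all genes. On Bmp10-low arrays Hspb1 (1.46 ± 0.28), Hsp90aa1 (1.07 ± 0.18), Hsph1 (0.99 ± 0.28) and Hspb8 (0.55 ± 0.13, limma adjusted p = 0.0034) were called, against 14.8%. On Bmp10-low arrays, which hold the high value of Ntg 1657, the Hspa1a difference was 0.79 ± 0.67 and did not pass. In dnPI3K-Mst1 against Ntg, Hspa1a was called on Bmp10-high arrays (1.32 ± 0.31, limma adjusted p = 0.0045) beside Hspb1 and Hsp90aa1, against 8.11% of all genes, and only Hspb1 and Hsp90aa1 on Bmp10-low arrays, against 16.5%. In dnPI3K-Mst1 against dnPI3K, 5 genes were called higher on Bmp10-high arrays (Hspa1a at 1.54, Hspb1, Hsph1, Dnajb1 at 0.76 and Hsp90aa1), against 8% of all genes, and 1 on Bmp10-low arrays (Hspb7 at 0.50), against 9.39%. The Bmp10-low arrays of dnPI3K hold the high Hspa1a values of 1507 and 1660 and the high Dnajb1 value of 1660. There Hspa1a differed by -0.23 ± 0.67 and Dnajb1 by 0.03 ± 0.49. Whether the difference between these genotypes was unlike in the atria was not tested.

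The spread between animals of 1 genotype differed widely among the members. The SD between animals was 0.79 log2 for Hspa1a, 0.57 for Dnajb1, 0.46 for Hsph1 and 0.42 for Hspb1, each above at least 99.3% of the genes tested, for which the median was 0.13. Bag3 had 0.29, above 97% of genes, Hsp90aa1 0.26, above 95.5%, Hspb7 0.21, above 90.8%, and Hspb8 0.18, above 82.1%. Cryab was the steadiest member at 0.083, above 6.5% of genes. Between the atria of an animal Hspa1a had an SD of 0.86, above 99.8% of genes, and Cryab one of 0.074, above 0.4%. Cryab, known as an abundant constitutive chaperone of cardiac muscle, ranged over 0.52 log2 on the 32 arrays, and Hspa1a over 3.89.

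Some members varied together. Across the 16 animal means Hspb1 and Hsp90aa1 had a Pearson r of 0.98, and 0.93 after the genotype means were removed. Hspa1a and Dnajb1 had 0.85, and Hspb7 and Bag3 0.88. These points share genotypes, so the r values are descriptions. The non-member genes most like each member over the 16 animals were Tnfrsf12a (0.96), Abra and Otulin for Hspb1, Abra (0.97), Gnl3 and Itga5 for Hsp90aa1, Dnaja1 (0.91), Jmjd6 and Jun for Hspa1a, Jmjd6 (0.80), Dnaja1 and Ints6 for Dnajb1, Hspa1l (0.93), Hspa4l and Slain2 for Hsph1, Hspa4 (0.96), Rapgef1 and Eif4enif1 for Bag3, Itga7 (0.95), Wfs1 and Gnao1 for Hspb7, Ube2g1 (0.93), Wfs1 and Slain2 for Hspb8, and Casq2 (0.93), Kpna1 and Palmd for Cryab.

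In the wider chaperone network, genes were called in both directions. Of 74 listed genes of the pathway, 71 were tested. In Mst1 against Ntg, 17 were higher and 9 lower, beside 12.6% of all genes called higher and 14.2% lower. In dnPI3K 3 of the 71 fell below Ntg and 0 rose, beside 4.05% of all genes called. In dnPI3K-Mst1 against Ntg, 12 were higher and 17 lower, beside 16.4% of all genes called higher and 14.2% lower. The same shares of all genes stand beside each count that follows, and nothing particular to a list is read from them.

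In the HSP70 and HSP110 family 5 of 12 were higher in Mst1 and 3 lower; Hspa1l, an HSP70 best known from testis, was 2.98-fold higher (1.57 ± 0.26, limma adjusted p = 0.00011), and Hspa4l, an HSP110, by 0.53 ± 0.13. In dnPI3K-Mst1 2 of these 12 were higher and 2 lower, with the mitochondrial HSP70 Hspa9 at -0.42. Among 16 J-domain genes 3 were higher and 3 lower in Mst1, with Dnajb4 at 0.60 and the mitochondrial Dnajc15 at -0.65 and Dnaja3 at -0.54. Of 10 genes of HSP60, HSP10 and the cytosolic chaperonin TRiC, 1 was higher in dnPI3K-Mst1 (Cct8 at 0.25) and 2 were lower (Hspd1, HSP60, at -0.39 and Hspe1, HSP10, at -0.42).

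Of 14 HSP90 family and cochaperone genes tested, 3 were higher and 3 lower in Mst1. Fkbp5, an HSP90 cochaperone of steroid receptors, was 0.69 ± 0.21 higher (limma adjusted p = 0.019), and Unc45b, the myosin chaperone, fell by 0.52. In dnPI3K-Mst1 1 of the 14 was higher and 4 lower, with Trap1, the mitochondrial HSP90, at -0.52. Of 10 BAG family and BAG3 partner genes 4 were higher in Mst1 and none lower; filamin C (Flnc), the BAG3 client, was 2.35-fold higher (1.23 ± 0.30, limma adjusted p = 0.0037), desmin (Des), the client of Cryab, 2.01-fold (limma adjusted p = 1.6e-05) and the autophagy receptor Sqstm1 1.57-fold (limma adjusted p = 6.7e-05). In dnPI3K-Mst1 4 of these were higher and 3 lower, with Synpo, a BAG3 partner, 1.69-fold higher (limma adjusted p = 8.5e-05). In dnPI3K, Hspb3 (-0.49), Hspa12a (-0.35) and Dnajc15 (-0.39) were called. Of the heat shock factors, 3 were tested, and Hsf2 was 0.33 higher in Mst1 (limma adjusted p = 0.027).

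Markers of other cells and early genes moved with the genotypes as well. The counts stand beside 12.6% of all genes called higher and 14.2% lower in Mst1, 16.4% and 14.2% in dnPI3K-Mst1, and 4.05% called in dnPI3K. Atf3 was 11-fold higher in Mst1 (3.46 ± 0.50, limma adjusted p = 3e-05) and 6.38-fold higher in dnPI3K-Mst1 (limma adjusted p = 0.00039) than in Ntg. Fos was the other of 8 early genes called in Mst1, while 6 of the 8 were called higher in dnPI3K-Mst1 and none in dnPI3K. The summed signal of the 8 ran from 10.21 to 11.36 log2 in Mst1, 9.12 to 12.12 in dnPI3K, 10.52 to 11.18 in dnPI3K-Mst1 and 9.44 to 11.35 in Ntg. Smooth muscle markers rose for 3 of 4 genes in Mst1 and in dnPI3K-Mst1. Myh11 went the other way in Mst1 without being called, at 7.10 ± 0.12 log2 against 7.51 ± 0.42 in Ntg (SD). The summed signal of the 4 smooth muscle markers ran from 10.41 to 11.88 log2 in Mst1, 10.57 to 11.76 in dnPI3K-Mst1 and 9.54 to 10.57 in Ntg. Fibroblast markers rose for 2 of 4 genes in Mst1 and for 4 of 4 in dnPI3K-Mst1, with a summed signal of 13.12 to 13.24 log2 in Mst1, 13.19 to 13.70 in dnPI3K-Mst1 and 12.52 to 13.16 in Ntg. Endothelial markers fell for 3 of 4 genes in Mst1, with a summed signal of 10.78 to 11.51 log2, against 11.41 to 11.87 in Ntg. Of the 4 atrial myocyte markers, Sln (-0.43, limma adjusted p = 0.00029) and Myl7 (-0.30, limma adjusted p = 0.0059) were lower in Mst1 than in Ntg. In dnPI3K-Mst1 Sln (-0.71, limma adjusted p = 7.5e-07), Myl7 (-0.39, limma adjusted p = 0.00052) and Myl4 (-0.22, limma adjusted p = 0.012) were lower and Nppa (0.15) higher. The part of these cells and of handling in the chaperone differences was not tested.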

How the data were processed

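RNA from both atria of 16 mice (100 ng of total RNA per sample, made into biotinylated cDNA) was hybridised to 32 Affymetrix Mouse Gene 1.0 ST arrays, per the labels' protocols. The deposited log2 values per probe set were made by the authors with Affymetrix Expression Console and PLIER, per the submitters' processing notes, which give no version; that the log has base 2 was judged from the range of the values. Of 35512 probe sets, 21789 were annotated to 1 gene, 1621 to several and 12102 to none here. The brightest probe set stood for each gene, and genes whose mean was over the 30th percentile (4.48 log2) were kept. Averaging probe sets, other filters and other scalings were tried as alternatives.

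The mean of both arrays of each animal was tested between 4 genotypes of 4 animals with limma 3.58.1 in R 4.3.3 (empirical Bayes with a trend over the mean level, two-sided, Benjamini-Hochberg adjustment over 15219 genes, calls at an adjusted p under 0.05). Atria were compared through the difference between an animal's Bmp10-high and Bmp10-low array. The labels tie both arrays to an animal; deviations from the group means of an animal's arrays had a median correlation of 0.216. No batch is named in the labels used here, so the p-values reflect how these animals vary and no more. The members and lists were chosen with earlier results of these data known. Named genes were the 10 members, some of the called genes of the listed pathway groups (at most 3 per group and genotype comparison) and the 3 genes most like each member. The number of arrays limits the precision. Scripts were tested on simulated data.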

Additional observations from a re-analysis of the deposited data

Results flagged for a closer look

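An animal far from the other 3 of its group (Dixon's test at the 95% level) was met in 11 of 108 groups of values, where chance flags about 1 in 20. The groups share animals and arrays and the members vary together, so this number of flags is a description and no excess is read from it. Animal 1466 of Mst1 accounted for most: Hspb1 averaged 9.93 log2 there against 10.78 to 10.86 in the other Mst1 animals, and was 9.74 on its Bmp10-high array against 10.69 to 10.85. Cryab averaged 10.27 log2 in the same animal, with 10.20 on its Bmp10-high and 10.33 on its Bmp10-low array, against animal means of 10.48 to 10.50. Hspb7 was 10.49 log2 on its Bmp10-low array against 10.72 to 10.75, and Bag3 8.63 on its Bmp10-high array against 9.38 to 9.52. The array of 1466 labelled left also had the lowest mean correlation with the other arrays, 0.949. Its part in these values was not tested.

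Bag3 was 8.10 log2 on the Bmp10-high array of dnPI3K 3241, against 8.79 to 8.89 in the other dnPI3K animals. Hspb8 was 9.50 log2 on the Bmp10-low array of dnPI3K 1660, against 9.81 to 9.87. Cryab was 10.40 log2 on the Bmp10-high array of dnPI3K-Mst1 1650, against 10.22 in the other 3. Hspa1a was 8.88 log2 on the Bmp10-low array of Ntg 1657, against 6.42 to 6.64 in the other Ntg animals.

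The difference between atria in Hspb8 ran opposite ways in Mst1 (-0.38 log2, lower in the Bmp10-high atrium in 4 of 4 animals) and Ntg (0.22, higher in 4 of 4), and the difference between the genotypes was -0.60 (limma adjusted p = 0.032).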

How the results depend on the processing

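Hspb1 and Hsp90aa1 remained called in Mst1 against Ntg (1.46 to 1.80 and 0.93 to 1.14 log2) and in dnPI3K-Mst1 against Ntg (0.79 to 1.2 and 0.60 to 0.80) under every alternative run. Of 220 counts of members called, 185 stayed within 1.5 times the reported count and 35 did not. With array weights, the members called against Ntg numbered 5 for Mst1, 1 for dnPI3K and 4 for dnPI3K-Mst1, and the double genotype had 4 against Mst1, 5 against dnPI3K and 1 for non-additivity (Hspb1, -1.07, limma adjusted p = 0.037). Array weights raised the calls over all genes too, to 3143 higher and 2646 lower for Mst1 against Ntg (1919 and 2165 without weights) and 1044 higher and 642 lower for the double genotype against Mst1 (403 and 129). Fitting only the genotypes compared gave 5 for Mst1 and 1 for dnPI3K, each against Ntg. Without the animals whose arrays stand apart, 5 were called for Mst1 against Ntg, 3 for the double genotype against Mst1 and 2 between atria. The animals high in Atf3 in a single atrium were chosen after seeing the data and could come only from Ntg and dnPI3K. Without them, 4 were called in dnPI3K-Mst1 against Ntg, 5 against dnPI3K and 2 between atria. With dnPI3K 1648 left out as well, which leaves dnPI3K 1 animal assumed to vary like the other groups, the same counts were 4, 5 and 1. A fit over all arrays with a Bmp10 term and the animal as a replicate block called 2 in dnPI3K against Ntg and 4 in dnPI3K-Mst1 against dnPI3K. That last comparison had 0 calls on arrays labelled right, 5 on Bmp10-high and 1 on Bmp10-low arrays. Between atria, 0 were called without the replicate block.

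Leaving out 1 animal at a time gave, against Ntg, 3 to 5 calls for Mst1, 0 to 1 for dnPI3K and 2 to 4 for dnPI3K-Mst1. The double genotype had 0 to 2 calls against Mst1 (2 without Mst1 1466) and 0 to 5 against dnPI3K (0 without dnPI3K 3241), and the atria had 3 to 5. Taken by the labels instead of Bmp10, as right minus left, the sign turned by construction, since most Bmp10-high arrays are labelled left: Hspb1 differed by 0.22, Hspa1a by 0.64, Hsph1 by 0.12 and Hsp90aa1 by 0.084, and 0 were called. The cause of the other changes was not tested. Arrays give no counting depth.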
